A study of Mus musculus with 9 samples.

Results

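Ethanol was compared with control in ATDC5 cells, a mouse cell line that forms cartilage nodules in culture and then matures toward mineralizing cartilage. The comparison used 6 of the series' 9 libraries, 3 labelled ethanol and 3 labelled control, and every gene whose mean over these 6 libraries was at least 1 count per 1000000 reads (CPM). This kept 12849 of the 26202 genes in the deposited table. The mean lay at 1.00 CPM for Lyz2, just inside this limit, and at 0.999 CPM for Chn1os3, just outside it.

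All libraries came from this 1 line, grown in DMEM/F-12 medium with 5% fetal bovine serum, 50 µg/mL ascorbate, 10 mM beta-glycerophosphate and an insulin, transferrin and selenium supplement, so the controls carried the differentiation agents too. Each library held between 28700000 and 41900000 reads, as recovered from the deposited values. RNA was taken with Trireagent and poly(A) RNA was sequenced after an Illumina stranded mRNA preparation. The ethanol dose, the length of exposure and what the control cells received are not given in the sources used here. Whether the 3 replicates of a group were separate cultures is not stated either, so p-values measure only the spread between these libraries, which may be technical.

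Growth-plate cartilage is built by chondrocytes that divide, lay down a matrix of type II collagen and aggrecan, then enlarge, switch to type X collagen and leave a matrix that mineralizes. SOX9, with its partners SOX5 and SOX6, drives the matrix genes, and Indian hedgehog, made by the enlarging cells, sets the pace of that maturation together with parathyroid hormone-related protein. Cartilage has no blood vessels, and its cells make much of their ATP by glycolysis under the hypoxia-inducible factors. Ethanol is oxidized to acetaldehyde by alcohol dehydrogenases and then to acetate by aldehyde dehydrogenases, and acetyl-CoA synthetases join acetate to coenzyme A.

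With ethanol, genes of the cartilage matrix, of collagen modification, of the hypoxia response and of glycolysis were lower, and genes of the interferon response were higher. Of the 12849 genes, 3450 (26.9%) passed an adjusted p of 0.05 in limma, of which 1567 (12.2%) were higher and 1883 (14.7%) were lower. Most of the differences were small: the median absolute log2 fold change of these genes was 0.43, and only 68 were at least 2-fold higher (0.529% of the genes tested) and 115 at least 2-fold lower (0.895%). The groups did not overlap for 5579 genes (43.4%), among them 3364 of the 3450. For a gene that passed, a lack of overlap is therefore given as description and not as separate evidence. Fold changes are on the log2(CPM + 1) scale, which understates the change of genes with few reads, and CPM were scaled by TMM, a trimmed mean over genes that sets the median gene near no change. Values of single libraries are given in the order of replicates 1, 2 and 3. Counts of each gene list are to be read against the shares over all genes, 12.2% higher and 14.7% lower. Counts under another setting are to be read against the shares of that setting.

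**Figure D1:**
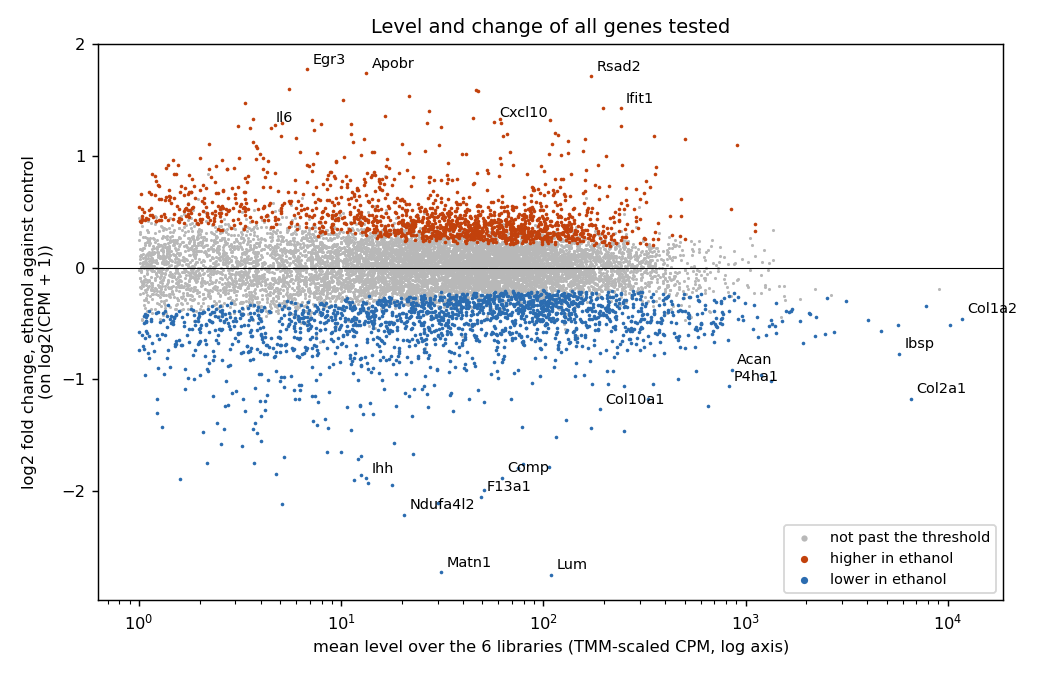
Log2 fold change of ethanol over control (y axis) against the mean CPM of each gene over the 6 libraries (x axis, log scale). Each point is 1 of the 12849 genes, those past the adjusted p of 0.05 are colored, and the largest changes run from -2.75 for Lum to 1.78 for Egr3.

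Libraries with the same replicate number deviated together from their group means, and replicate 3 stood apart from replicates 1 and 2: between 1.27% and 2.56% of genes differed by over 1.5 times between replicate 3 and another library of its group, against 0.311% to 0.397% between replicates 1 and 2. With the replicate number as a block, 6410 genes (49.9%) passed, 3107 higher (24.2%) and 3303 lower (25.7%), and all 3450 genes kept their call and direction. With the series' 3 acetate libraries added to the fit, where they enter only the estimate of each gene's spread, 509 genes (3.96%) passed. This is called the 9-library fit from here on. With only acetate replicate 2 taken out of it, 2761 genes passed, so most of the drop went with that library. Without the authors' TMM scaling, as CPM of the total count, the split moved to 24.3% higher and 9.67% lower, with the median of all genes raised by 0.092 on the log2 scale. Leaving out 1 library gave between 1491 genes (without control replicate 1) and 4472 genes (without control replicate 3), and also 1953 without control replicate 2 and 1698 without ethanol replicate 2. Of the 169 genes named in the text as past the threshold, 89 passed with all 9 libraries in the fit and between 146 and 164 with 1 library left out.

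The cartilage matrix genes fell nearly throughout. Of 27 tested members, which cover the cartilage collagens, aggrecan and its partners, and the matrilins and other small secreted proteins of cartilage, 24 were lower and none higher. The median log2 fold change of the list was -1.12. Col2a1, the fibrillar collagen of cartilage, was at 9738, 7569.6 and 9958 CPM in the controls and at 4379, 3512 and 4132 CPM with ethanol (log2 fold change -1.18, SE 0.14, limma adjusted p = 0.000473). Replicate 2 had the lowest Col2a1 of each group, and the highest ethanol library was still below the lowest control. Acan, the large proteoglycan that holds water in cartilage, was at 1169, 866 and 1324 CPM in the controls and at 667, 476 and 625 CPM with ethanol (log2 fold change -0.92, SE 0.16, limma adjusted p = 0.0037). Hapln1, the link protein that ties aggrecan to hyaluronan, was at 990.2, 850.4 and 922 CPM in the controls and at 437, 331 and 403 CPM with ethanol (log2 fold change -1.24, SE 0.11, limma adjusted p = 0.000109).

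All 8 cartilage collagens tested were lower. Col9a1, a chain of the collagen that coats type II fibrils, was at 215, 158 and 189 CPM in the controls and at 88.9, 58.4 and 70.5 CPM with ethanol (log2 fold change -1.36, SE 0.15, limma adjusted p = 0.000311), and its partner chain Col9a2 had a log2 fold change of -1.93. Col11a1, a chain of the collagen that sits in the core of those fibrils, was at 1881, 1521 and 1957 CPM in the controls and at 905, 754 and 982 CPM with ethanol (log2 fold change -1.02, SE 0.12, limma adjusted p = 0.000545). The controls of both genes lay wholly above the ethanol libraries.

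Of 15 matrilins and other small proteins of cartilage, 14 fell. Matn1 encodes matrilin-1, an adaptor protein nearly specific to cartilage, and was at 57.8, 53.8 and 52.6 CPM in the controls and at 9.68, 6.37 and 6.48 CPM with ethanol (log2 fold change -2.73, SE 0.14, limma adjusted p = 1.08e-05). Comp, a pentameric protein that bridges collagen fibrils, was at 107, 82.4 and 108 CPM in the controls and at 27.4, 20.9 and 30.4 CPM with ethanol (log2 fold change -1.88, SE 0.14, limma adjusted p = 6.89e-05). The same direction held for Snorc (-2.12), a membrane proteoglycan of chondrocytes, for Clec3a (-1.86), a cartilage lectin, and for Matn4 (-1.57), another matrilin, as log2 fold changes that passed. In the 4 genes of the aggregate, 2 passed, while Vcan, a proteoglycan of looser matrix, was at 59.7, 60.1 and 97.1 CPM in the controls and at 84.8, 96.4 and 124 CPM with ethanol and did not pass, with a log2 fold change of 0.51 (limma adjusted p = 0.0681), though it was called higher with the block. In the 9-library fit 20 of the 27 cartilage matrix genes were lower.

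The regulators of the chondrocyte lineage did not move as a group. Of 24 tested, 4 were higher (16.7%) and 3 lower (12.5%), near the 12.2% and 14.7% of all genes tested. The 3 lower ones were SOX factors. Sox9 was at 458, 403 and 486 CPM in the controls and at 321, 286 and 345 CPM with ethanol (log2 fold change -0.50, SE 0.10, limma adjusted p = 0.00524), and Sox6 at 124, 111 and 137 CPM in the controls and at 82.3, 75.0 and 91.4 CPM with ethanol (log2 fold change -0.58, SE 0.10, limma adjusted p = 0.00292). No ethanol library reached the lowest control for either gene. Sox8, a relative of Sox9, had a log2 fold change of -0.43. Among the higher genes were Arid5a (0.89), an RNA- and DNA-binding protein, Prrx2 (0.47), a homeobox factor of limb mesenchyme, and Sox4 (0.46), a factor of precursor cells. None of the 24 regulators passed in the 9-library fit, and 2 were higher without control replicate 1 or without ethanol replicate 2.

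Genes of the enlarged, hypertrophic chondrocyte were lower in 9 of 23 tested (39.1%) and higher in 1 (4.35%). The shares over all genes tested were 14.7% and 12.2%. Col10a1, the collagen that marks this stage, was at 300.1, 255 and 253 CPM in the controls and at 105, 117 and 112 CPM with ethanol (log2 fold change -1.27, SE 0.08, limma adjusted p = 3.25e-05). Ihh, the hedgehog ligand of the growth plate, was at 20.6, 19.5 and 24.1 CPM in the controls and at 5.70, 4.76 and 4.68 CPM with ethanol (log2 fold change -1.89, SE 0.11, limma adjusted p = 2.05e-05). Foxa2 (-1.31) and Foxa3 (-1.18), forkhead factors of hypertrophy, and Mmp13 (-0.95), the collagenase that clears type II collagen, also fell, as log2 fold changes. With the block, 16 hypertrophy genes were lower.

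Of 13 tested genes of hedgehog and parathyroid hormone-related protein signalling, 5 were lower (38.5%, against 14.7% of all genes tested) and none higher. Besides the ligand Ihh, these were 3 genes of reception and response and the parathyroid hormone receptor. Ptch1, the hedgehog receptor and a direct hedgehog target, was at 298, 258 and 315 CPM in the controls and at 161, 137 and 158 CPM with ethanol (log2 fold change -0.93, SE 0.09, limma adjusted p = 0.00024). Gli1, a transcription factor that is itself switched on by the pathway, was at 21.8, 18.5 and 26.8 CPM in the controls and at 12.0, 11.6 and 12.7 CPM with ethanol (log2 fold change -0.82, SE 0.12, limma adjusted p = 0.00168). Cdon, a co-receptor, had a log2 fold change of -0.42 and Pth1r, the receptor for parathyroid hormone and its related protein, of -0.38. The groups did not overlap for any of these 5. The co-receptor Gas1 was at 243, 316 and 172 CPM in the controls and at 336, 453 and 268 CPM with ethanol and did not pass, with a log2 fold change of 0.54 (limma adjusted p = 0.0937), though it was called higher with the block. Of the 13, 3 were lower in the 9-library fit, and 3 were higher with the block, against 24.2% of all genes tested.

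**Figure D2:**
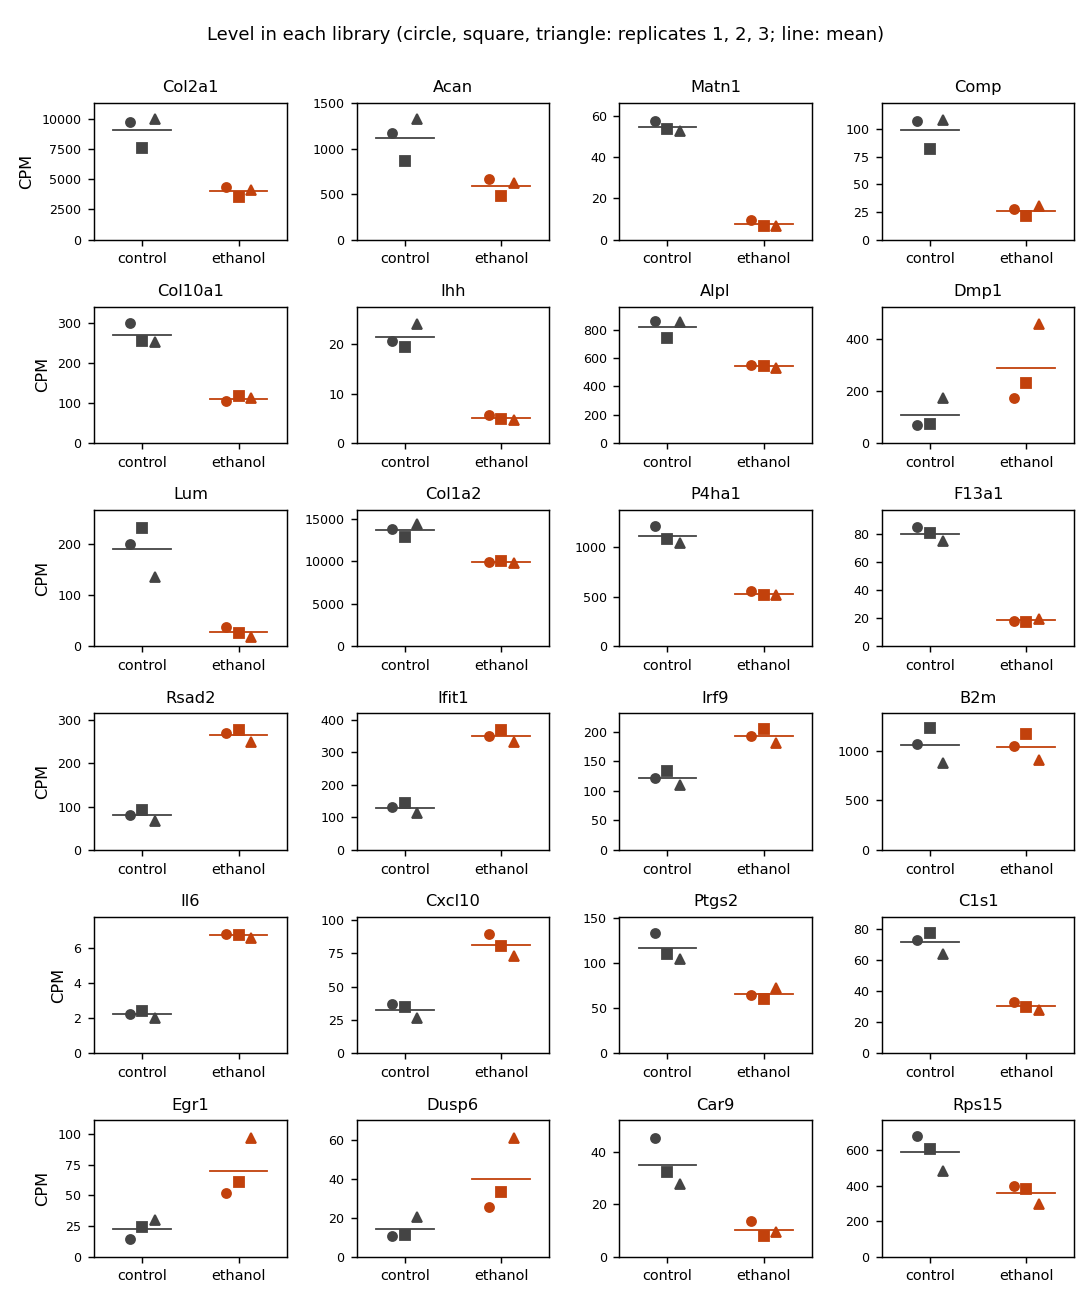
CPM (y axes, from 0) of 24 genes in the 6 libraries, with circles, squares and triangles for replicates 1, 2 and 3 of control and ethanol and a line at each group mean. Ihh fell from between 19.5 and 24.1 CPM to between 4.68 and 5.70 CPM, and Rsad2 rose from between 67.5 and 92.3 CPM to between 249 and 276 CPM.

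Among 24 tested genes of osteoblasts and mineral, 12 were lower (50.0%) and 4 higher (16.7%), against 14.7% and 12.2% of all genes tested. Alpl, the phosphatase that frees phosphate for mineral, was at 858, 742 and 856 CPM in the controls and at 549, 540.4 and 529.6 CPM with ethanol (log2 fold change -0.60, SE 0.08, limma adjusted p = 0.000945). Ibsp, bone sialoprotein of mineralized matrix, was at 7833, 6646 and 7324 CPM in the controls and at 3978, 4319 and 4451 CPM with ethanol (log2 fold change -0.77, SE 0.11, limma adjusted p = 0.00118), though its direction turned under quantile scaling. The osteocalcin genes Bglap (-1.65) and Bglap2 (-1.45), near-identical neighbors between which reads may be split, and Sost (-0.89), a secreted WNT antagonist of osteocytes, were lower on the log2 scale. Runx2, the master regulator of bone formation, was at 341, 327 and 388 CPM in the controls and at 297, 301 and 345 CPM with ethanol and did not pass (-0.16, limma adjusted p = 0.198), though it was called lower with the block.

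Members of the mineral list that rose included Slc20a1, a sodium-phosphate transporter, with a log2 fold change of 0.79, and Dmp1, an acidic protein of osteocytes and dentin. Dmp1 was at 71.0, 73.4 and 175 CPM in the controls and at 172, 233 and 459 CPM with ethanol (log2 fold change 1.43, SE 0.38, limma adjusted p = 0.0211). Replicate 3 was the highest for Dmp1 in each group, so that control replicate 3 lay above ethanol replicate 1. Spp1, osteopontin, was at 2389, 2063 and 2619.9 CPM in the controls and at 1795, 2181 and 2231 CPM with ethanol and did not pass (-0.19, limma adjusted p = 0.265), though it was called lower with the block. Of the 24 mineral genes, 5 were lower and none higher in the 9-library fit, and with no filter on low genes 5 and 1. Without control replicate 1, control replicate 2 or ethanol replicate 2, 1 was higher, and without ethanol replicate 3, 2 were.

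The fibrous matrix, which cartilage precursors share with other connective tissue, was lower in 25 of 44 tested genes and higher in 3, with a median log2 fold change of -0.345. Lum and Dcn encode lumican and decorin, small leucine-rich proteoglycans that space collagen fibrils. Lum was at 201, 232 and 137 CPM in the controls and at 37.9, 27.1 and 18.3 CPM with ethanol (log2 fold change -2.75, SE 0.24, limma adjusted p = 0.00012). Dcn was at 134, 140.4 and 92.0 CPM in the controls and at 44.8, 33.0 and 28.6 CPM with ethanol (log2 fold change -1.76, SE 0.18, limma adjusted p = 0.000245). Further falls, as log2 fold changes, were those of Igfbp7 (-0.97), Fbln2 (-0.81), a fibulin, Efemp2 (-0.77), an elastic fiber protein, and Aspn (-0.64), another small leucine-rich proteoglycan, whose groups overlapped.

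The chains of type I collagen, the main fibrillar collagen of bone and fibrous tissue, fell by less. Col1a1 was at 12316, 10582 and 13338 CPM in the controls and at 8324, 8052 and 8868 CPM with ethanol (log2 fold change -0.52, SE 0.13, limma adjusted p = 0.0158), and Col1a2 at 13845, 12819 and 14360.0 CPM in the controls and at 9945, 10043 and 9855 CPM with ethanol (log2 fold change -0.46, SE 0.12, limma adjusted p = 0.0176). For both chains every control lay above every ethanol library, but quantile scaling brought Col1a2 to no change. Under that scaling 10 members of the fibrous list were lower, and the median of its 12 collagens was -0.0288. Bgn (-0.3), biglycan, Sparc (-0.57), a collagen-binding protein, and Col5a2 (-0.47), a chain that regulates fibril width, were among the 10 most abundant genes that passed. Quantile scaling turned the direction of Bgn and Sparc and brought Col5a2 to no change. Abundant genes were lower more often: of the 66 with a mean of at least 1000 CPM, 54.5% were lower and 3.03% higher. Their median log2 fold change was -0.338. The part of a gene's level in these falls was not tested. The 9-library fit gave 6 members of the fibrous list lower and 1 higher, leaving out ethanol replicate 2 gave 16 lower, and no filter on low genes gave 10.

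Enzymes that modify, fold and cross-link collagen were lower in 23 of 30 tested and higher in none, with a median log2 fold change of -0.47. Hydroxylases of proline and lysine, which stabilize the triple helix, made up 12 of these, and 11 of the 12 fell. P4ha1, the catalytic subunit of the main prolyl 4-hydroxylase, was at 1217, 1089.9 and 1044 CPM in the controls and at 559, 521 and 517 CPM with ethanol (log2 fold change -1.06, SE 0.08, limma adjusted p = 7.3e-05). P4ha2 (-1.04), P3h2 (-0.86) and Plod2 (-0.72), other prolyl and lysyl hydroxylases, fell as well on the log2 scale.

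F13a1, the transglutaminase chain that cross-links matrix proteins, was at 84.6, 80.4 and 74.9 CPM in the controls and at 18.3, 17.6 and 19.5 CPM with ethanol (log2 fold change -2.06, SE 0.08, limma adjusted p = 1.87e-06). The log2 fold change was -1.06 for Loxl2, a lysyl oxidase-like enzyme, -0.68 for Serpinh1, the collagen chaperone HSP47, and -0.61 for P4hb, protein disulfide isomerase. Lox itself did not pass (-0.11, limma adjusted p = 0.28). Of the 30 enzymes, 8 were lower in the 9-library fit. Of 19 basement membrane genes, 10 were lower and none higher, led by Col4a6 (-1.07), a type IV collagen chain, and Lama5 (-0.79), a laminin chain, both on the log2 scale. The 9-library fit gave 3 lower.

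Interferon response genes rose. Of 82 tested members, 64 were higher and 1 lower, with a median log2 fold change of 0.712, and 35 were higher in the 9-library fit. The effectors, which are the proteins that act against viruses inside the cell, were higher in 48 of 54. Rsad2, viperin, was at 81.3, 92.3 and 67.5 CPM in the controls and at 269, 276 and 249 CPM with ethanol (log2 fold change 1.72, SE 0.11, limma adjusted p = 2.05e-05). Ifit1, which binds foreign RNA, was at 133, 145 and 113 CPM in the controls and at 352, 369 and 333 CPM with ethanol (log2 fold change 1.43, SE 0.09, limma adjusted p = 3.22e-05). In both genes the lowest ethanol library was well above the highest control, and replicate 3 was the lowest of each group. Zbp1 (1.58), a sensor of left-handed nucleic acid, Ifit1bl2 (1.54), a relative of Ifit1 that may share reads with it, Oasl1 (1.34) and Mx1 (1.33), a dynamin-like antiviral GTPase, also rose, as log2 fold changes.

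Promoter sequences of interferon, hypoxia and glycolysis genes are shown in this report because most members of each list moved the same way. They are RefSeq sequences of build GRCm38, 150 bases long and ending at the base before the transcription start, 5′ to 3′ on the gene's strand. In the first 3, capitals mark GAAANNGAAA or its reverse complement TTTCNNTTTC, the core of the interferon-stimulated response element. They belong to Rsad2 (chr12:26456453-26456602, minus strand), Ifit1 (chr19:34640739-34640888, plus strand) and Irgm2 (chr11:58214827-58214976, plus strand), an immunity-related GTPase with a log2 fold change of 1.18.
Rsad2: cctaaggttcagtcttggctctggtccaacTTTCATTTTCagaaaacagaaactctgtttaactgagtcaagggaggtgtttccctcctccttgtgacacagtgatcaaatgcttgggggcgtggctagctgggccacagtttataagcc
Ifit1: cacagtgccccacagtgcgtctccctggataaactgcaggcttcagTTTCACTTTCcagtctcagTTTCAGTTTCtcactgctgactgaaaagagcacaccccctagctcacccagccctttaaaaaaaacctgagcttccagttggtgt
Irgm2: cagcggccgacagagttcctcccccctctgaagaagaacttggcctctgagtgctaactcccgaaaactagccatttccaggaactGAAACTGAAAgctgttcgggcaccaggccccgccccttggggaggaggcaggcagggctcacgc
Within the 250 bases before the start, searched on both strands, 33.8% of the promoters of tested interferon genes held GAAANNGAAA (26 of 77) and 38.3% of those of the members that were higher (23 of 60). Among all 32851 promoters the share was 2.98%, and among promoters of tested genes it was 2.62%. The first base of the motif lies 120 bases before the start in Rsad2, 104 and 85 bases before it in Ifit1, and 64 bases before it in Irgm2. A match is a description of letters and not a shown binding site.

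Upstream of the effectors, sensors of nucleic acid were higher in 9 of 11 tested. Ifih1, the RNA sensor MDA5, had a log2 fold change of 1.01, Tlr3, an endosomal receptor for double-stranded RNA, of 1.02, and Cgas, the sensor of cytosolic DNA, of 0.59. Of 8 interferon receptor chains and their kinases, 1 was higher and 1 lower, the latter Ifnar2, a chain of the type I receptor (-0.29), whose call was lost with total-count CPM, without control replicate 1 or 2 and without ethanol replicate 2 or 3. Of the signalling factors, 6 of 9 were higher. Irf9, the DNA-binding part of the complex that the type I receptor activates, was at 122, 133 and 109 CPM in the controls and at 193, 205 and 182 CPM with ethanol (log2 fold change 0.67, SE 0.09, limma adjusted p = 0.000736), and Stat2, another part of it, had a log2 fold change of 0.72. Irf7, the factor that amplifies type I interferon, was at 134, 166 and 86.7 CPM in the controls and at 191, 236 and 158 CPM with ethanol with overlapping groups and did not pass (0.62, limma adjusted p = 0.0525), though it was called higher with the block.

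Antigen presentation by MHC class I was split. Of 23 tested genes, 8 were higher (34.8%) and 2 lower (8.7%), against 12.2% and 14.7% of all genes tested. Nlrc5, the transactivator of class I genes, was at 11.5, 10.0 and 12.6 CPM in the controls and at 18.2, 21.2 and 21.9 CPM with ethanol (log2 fold change 0.79, SE 0.11, limma adjusted p = 0.00104). Tap1 (0.75), a peptide transporter, and Psmb10 (0.81), an immunoproteasome subunit, rose with it, as did H2-Q6 (1.05), H2-Q4 (0.7) and H2-T22 (0.67), whose sequences resemble other class I genes and may share reads. B2m, the light chain of every class I molecule, was at 1065, 1233 and 878 CPM in the controls and at 1046, 1167 and 906 CPM with ethanol and did not pass (-0.02, limma adjusted p = 0.922), and Calr, a chaperone of class I folding, fell (-0.55). With the block 17 were higher and 3 lower, and in the 9-library fit 2 were higher and 1 lower.

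Chemokines and cytokines under NF-kB were mostly higher: of 37 tested genes of this list, 19 were higher and 4 lower, and in the 9-library fit 8 were higher and none lower. Il6, an inflammatory cytokine, was at 2.25, 2.43 and 2.03 CPM in the controls and at 6.81, 6.73 and 6.58 CPM with ethanol (log2 fold change 1.25, SE 0.10, limma adjusted p = 8.32e-05). Cxcl10, a chemokine that interferon also induces, was at 36.7, 34.5 and 26.2 CPM in the controls and at 89.9, 80.4 and 72.9 CPM with ethanol (log2 fold change 1.30, SE 0.12, limma adjusted p = 0.000179). The monocyte chemokines Ccl2 (1.23) and Ccl7 (1.12), the neutrophil chemokine Cxcl1 (1.03) and the inhibitor Nfkbie (0.81) were higher too, as log2 fold changes, with no overlap between groups. Csf1, the growth factor of macrophages, rose by 0.59 on the log2 scale. Cxcl12, a stromal chemokine (-0.3), and Ptgs2 were among the lower members. Without control replicate 1 or 2 or ethanol replicate 1 or 2, and with total-count CPM, 2 were lower.

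Ptgs2 encodes cyclooxygenase-2, an enzyme of prostaglandin synthesis, and was at 134, 111 and 105 CPM in the controls and at 65.0, 60.3 and 72.3 CPM with ethanol (log2 fold change -0.81, SE 0.10, limma adjusted p = 0.000669). Of 11 tested prostaglandin genes, 6 were lower and 1 higher. Hpgd, the enzyme that breaks prostaglandins down, had a log2 fold change of -1.69, and Ptgis, prostacyclin synthase, of -1.25. Ptger1, a receptor for prostaglandin E2, was the 1 higher gene (0.86). Complement and acute-phase genes were lower in 7 of 10 and higher in none. C1s1, a protease of the first complement component, was at 73.4, 77.6 and 64.1 CPM in the controls and at 33.2, 29.9 and 28.3 CPM with ethanol (log2 fold change -1.21, SE 0.09, limma adjusted p = 7.22e-05). Ptx3, a secreted pattern receptor (-0.82), and C1ra, the partner protease of C1s1 (-0.45), were lower as well. The 9-library fit gave 3 prostaglandin genes and 4 complement genes lower.

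Immediate-early genes, which respond within minutes to growth factors or stress, were higher in 14 of 32 tested and lower in 8. These shares were 43.8% and 25.0%, against 12.2% and 14.7% of all genes tested. Egr1, a zinc finger factor, was at 14.1, 24.1 and 29.9 CPM in the controls and at 51.7, 61.0 and 96.7 CPM with ethanol (log2 fold change 1.59, SE 0.26, limma adjusted p = 0.00271). Egr3, a relative of it, was at 1.15, 2.16 and 3.76 CPM in the controls and at 5.82, 8.32 and 19.5 CPM with ethanol (log2 fold change 1.78, SE 0.37, limma adjusted p = 0.00804). For both genes replicate 3 was the highest and replicate 1 the lowest of each group, and no ethanol library overlapped the controls. Fosl1 (1.13), an AP-1 subunit, Ier2 (0.93), Egr2 (0.92) and Arc (0.76) were also higher on the log2 scale. Klf4, a zinc finger factor, fell (-0.24). The 9-library fit gave 4 members higher and none lower, and 5 were lower without control replicate 1, without ethanol replicate 2 or with no filter on low genes.

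Feedback genes of the ERK kinase pathway, which ERK switches on and which then restrain it, were higher in 4 of 16 tested and lower in 1. These shares were 25.0% and 6.25%, against 12.2% and 14.7% of all genes tested. Dusp6, a phosphatase of ERK, was at 10.8, 11.4 and 20.3 CPM in the controls and at 25.8, 33.4 and 61.3 CPM with ethanol (log2 fold change 1.40, SE 0.29, limma adjusted p = 0.00789). The library of replicate 3 was again the highest of each group. Etv4 (1.3), an ETS factor, Dusp5 (0.82), another phosphatase, and Spry2 (0.58), an inhibitor of receptor signalling, made up the rest of the higher ones. With the block 9 of the 16 were higher, with total-count CPM 7, and in the 9-library fit or with no filter on low genes 2. Fgfr3, the fibroblast growth factor receptor that slows chondrocyte division, was at 252, 210.4 and 243 CPM in the controls and at 132, 100.05 and 111 CPM with ethanol (log2 fold change -1.04, SE 0.11, limma adjusted p = 0.00025).

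Targets of the hypoxia-inducible factors were lower in 22 of 34 tested and higher in none, with a median log2 fold change of -0.545. This list shares members with the collagen enzymes, among them P4ha1 and P4ha2, so the lists are not independent. Ndufa4l2, which lowers oxygen use by the respiratory chain, was at 47.3, 29.2 and 25.9 CPM in the controls and at 10.4, 4.02 and 5.88 CPM with ethanol (log2 fold change -2.21, SE 0.28, limma adjusted p = 0.000681). Car9, a membrane carbonic anhydrase, was at 45.4, 32.3 and 27.6 CPM in the controls and at 13.5, 7.98 and 9.51 CPM with ethanol (log2 fold change -1.67, SE 0.20, limma adjusted p = 0.000473). Every ethanol library lay below every control for these genes. Egln3, an oxygen-sensing hydroxylase, had a log2 fold change of -1.28, and Adm, the vasodilator adrenomedullin, of -1.0. Of the factors themselves, Hif1a was at 386, 354 and 372 CPM in the controls and at 311, 298 and 317 CPM with ethanol (log2 fold change -0.26, SE 0.07, limma adjusted p = 0.0212), and Epas1, the gene of HIF-2 alpha, had a log2 fold change of -0.88. Of the 34, 8 were lower in the 9-library fit.

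Capitals in these promoters mark ACGTG or its reverse complement CACGT, the core to which hypoxia-inducible factors bind. The windows belong to Car9 (chr4:43506876-43507025), P4ha1 (chr10:59323146-59323295) and Slc16a3 (chr11:120948917-120949066), all on the plus strand of GRCm38. Slc16a3 was named from the glycolysis and lactate list and not from the hypoxia list.
Car9: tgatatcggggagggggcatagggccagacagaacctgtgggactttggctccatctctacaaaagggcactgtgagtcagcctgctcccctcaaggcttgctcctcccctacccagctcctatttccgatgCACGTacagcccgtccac
P4ha1: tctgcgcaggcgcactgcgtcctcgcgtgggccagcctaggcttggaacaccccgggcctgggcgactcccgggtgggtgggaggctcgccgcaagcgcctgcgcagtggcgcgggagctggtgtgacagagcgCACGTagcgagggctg
Slc16a3: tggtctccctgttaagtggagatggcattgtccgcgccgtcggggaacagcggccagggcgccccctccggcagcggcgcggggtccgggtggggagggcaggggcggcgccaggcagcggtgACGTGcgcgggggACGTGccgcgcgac
The motif was in 52.8% of the promoters of tested hypoxia genes (19 of 36) and in 66.7% of those of the members that were lower (16 of 24). For tested glycolysis and lactate genes the share was 39.0% (16 of 41). The motif was in 16.6% of all 32851 promoters and in 21.7% of those of tested genes. The first base of the motif lies 18 bases before the start in Car9, 16 in P4ha1, and 27 and 14 in Slc16a3.

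Glycolysis and lactate genes were lower in 22 of 29 tested and higher in 2, with a median log2 fold change of -0.37. Slc16a3, the transporter that exports lactate, was at 34.8, 26.6 and 35.8 CPM in the controls and at 14.5, 10.6 and 11.9 CPM with ethanol (log2 fold change -1.33, SE 0.14, limma adjusted p = 0.00025). Aldoc (-1.52) and Aldoa (-0.65), aldolases, Ldhb (-0.9), a lactate dehydrogenase chain, Pfkl (-0.68), a phosphofructokinase, and Pgk1 (-0.62), phosphoglycerate kinase, were lower on the log2 scale. Pkm (-0.44), pyruvate kinase, and Ldha (-0.37), the other lactate dehydrogenase chain, fell by less and turned direction under quantile scaling. The 2 higher genes were Pdk4, a kinase that keeps pyruvate out of the mitochondrion (0.57), and Slc2a3, a glucose transporter (0.31). In the 9-library fit 3 were lower and none higher, and without control replicate 1, ethanol replicate 2 or ethanol replicate 3, 12 to 13 were lower. With no filter on low genes 11 were lower, and with the 9 libraries other than acetate replicate 2, 14.

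**Figure D3:**
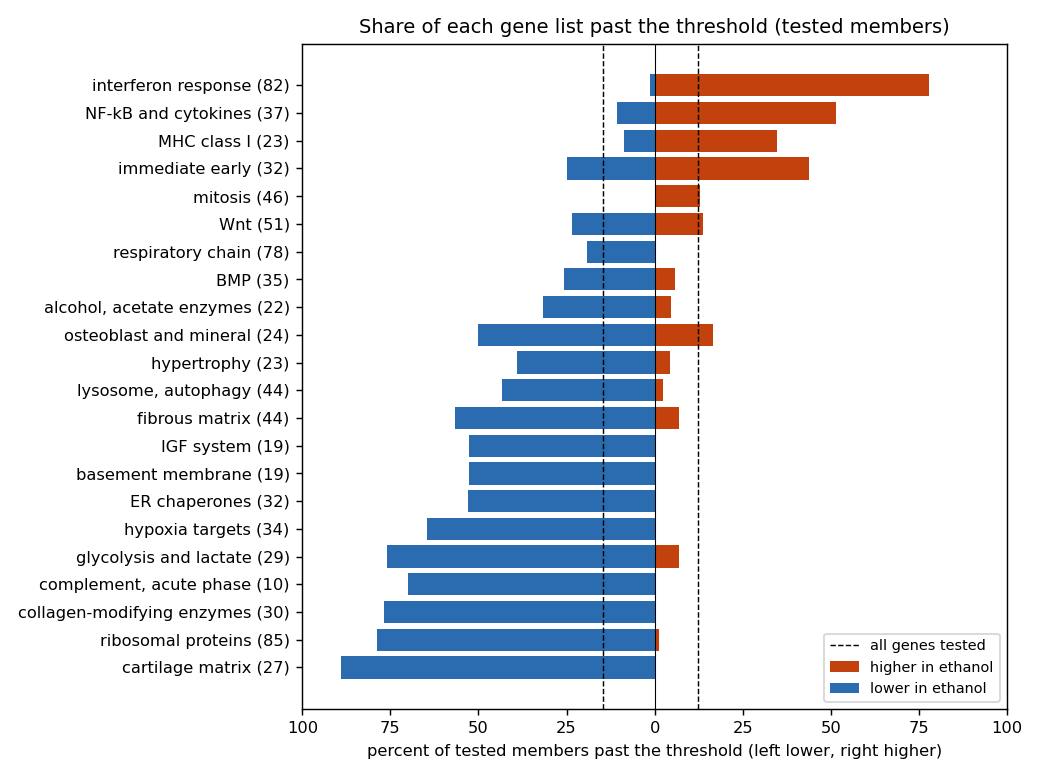
Share of each gene list that passed the adjusted p of 0.05, higher to the right and lower to the left of 0 (x axis, percent of tested members), with the shares over all 12849 genes, 12.2% higher and 14.7% lower, as dashed lines. Interferon genes lie far to the right and cartilage matrix, collagen enzymes and ribosomal proteins far to the left.

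Genes of cytosolic ribosomal proteins shifted down together by a small amount, with 67 of 85 lower, 1 higher and a median log2 fold change of -0.502. Rps15, a small-subunit protein, was at 681, 611 and 483 CPM in the controls and at 401, 385 and 297 CPM with ethanol (log2 fold change -0.71, SE 0.14, limma adjusted p = 0.00627). Replicate 3 was the lowest of each group, and control replicate 3 still lay above the 3 ethanol libraries. Rps21 (-0.78), Rps28 (-0.74) and Rps19 (-0.71) were among the largest of these falls and Rpl4 (-0.48) fell by less, on the log2 scale. Rplp0 did not pass (-0.44, limma adjusted p = 0.0525), though it was called lower with the block. The elongation factors Eef1a1 (-0.51) and Eef2 (-0.58) were lower as well, and quantile scaling turned the direction of Eef1a1.

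The ribosomal protein calls depended on the libraries. In the 9-library fit none passed. Leaving out control replicate 1 left 11 lower, control replicate 2 left 14, and ethanol replicate 2 or 3 left 35. Total-count CPM gave 39 lower, quantile scaling 36, no filter on low genes 10, and the 9 libraries other than acetate replicate 2, 22. Transcript length moved with these results: of the 568 tested genes with transcripts under 1000 bases, 28.5% were lower and 4.23% higher (24.8% lower without the ribosomal protein genes), while of the 755 with at least 8000 bases 9.93% were lower and 15.8% higher. The part of transcript length in the result was not tested.

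Subunits of the respiratory chain encoded in the nucleus were lower in 15 of 78 tested (19.2%, against 14.7% of all genes) and higher in none. The median log2 fold change of the list was -0.244. Cox7a2, a subunit of cytochrome c oxidase, was at 77.4, 69.7 and 55.2 CPM in the controls and at 54.0, 49.3 and 36.9 CPM with ethanol (log2 fold change -0.52, SE 0.15, limma adjusted p = 0.0289), and Ndufv3, a subunit of complex I, had a log2 fold change of -0.47. Atp5b, of ATP synthase, did not pass (-0.17, limma adjusted p = 0.205), though it was called lower with the block. With the block 55 of the 78 were lower, and in the 9-library fit none. With total-count CPM 4 were lower, with no filter on low genes 2, and leaving out 1 library gave between 1 (without control replicate 1) and 32 (without control replicate 3), with 2 to 4 without control replicate 2, ethanol replicate 2 or ethanol replicate 3.

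Chaperones and enzymes of the endoplasmic reticulum, which fold secreted proteins, were lower in 17 of 32 and higher in none. P4hb counts both in this list and in the collagen enzymes. Pdia6, a disulfide isomerase, was at 352, 272 and 263 CPM in the controls and at 189, 191 and 166 CPM with ethanol (log2 fold change -0.69, SE 0.11, limma adjusted p = 0.00233), and Hsp90b1, the chaperone GRP94, had a log2 fold change of -0.52. Lysosome and autophagy genes were lower in 19 of 44 and higher in 1. Naglu, which breaks down heparan sulfate in lysosomes, was at 62.6, 61.3 and 52.4 CPM in the controls and at 39.0, 41.9 and 30.7 CPM with ethanol (log2 fold change -0.65, SE 0.12, limma adjusted p = 0.00403), and Lamp1, a membrane protein of lysosomes, had a log2 fold change of -0.29. Lower in the 9-library fit were 3 chaperones and no lysosome gene. Without control replicate 1, 12 lysosome genes were lower, and with the block 30.

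**Figure D4:**
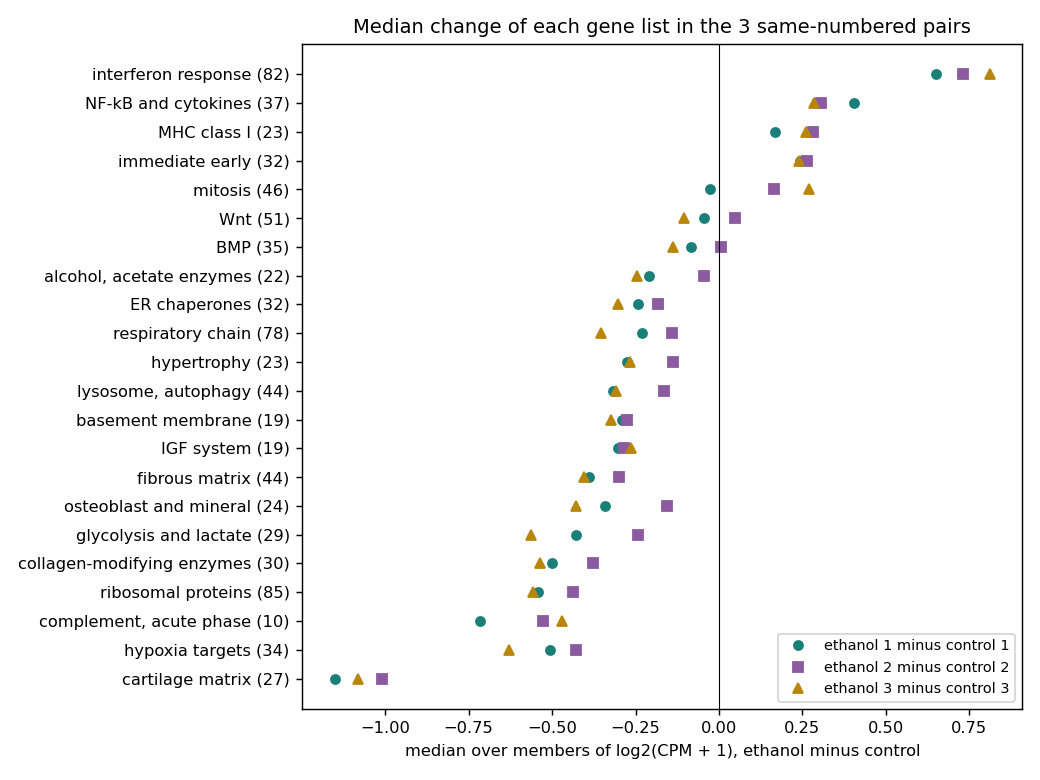
Median log2 fold change of each gene list within each same-numbered pair of libraries (x axis), with a circle, a square and a triangle for replicates 1, 2 and 3 and a line of points for each list. The cartilage matrix medians were -1.15, -1.01 and -1.08 and the interferon medians 0.649, 0.732 and 0.811.

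As a share of all counts, the cartilage matrix list took 1.5%, 1.28% and 1.59% in the controls and 0.794%, 0.636% and 0.783% with ethanol. The fibrous matrix list took 7.0%, 6.78% and 7.07% against 5.70%, 5.54% and 5.65%. Both matrix lists therefore held less of the library in each ethanol sample than in any control. The interferon list went from 0.769%, 0.870% and 0.649% to 1.34%, 1.44% and 1.24%. Ribosomal protein genes took 3.82%, 3.54% and 2.86% in the controls and 2.91%, 2.67% and 2.12% with ethanol, so control replicate 3 lay below ethanol replicate 1. In bulk samples, fewer cells of a type and less RNA per cell cannot be told apart.

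**Figure D5:**
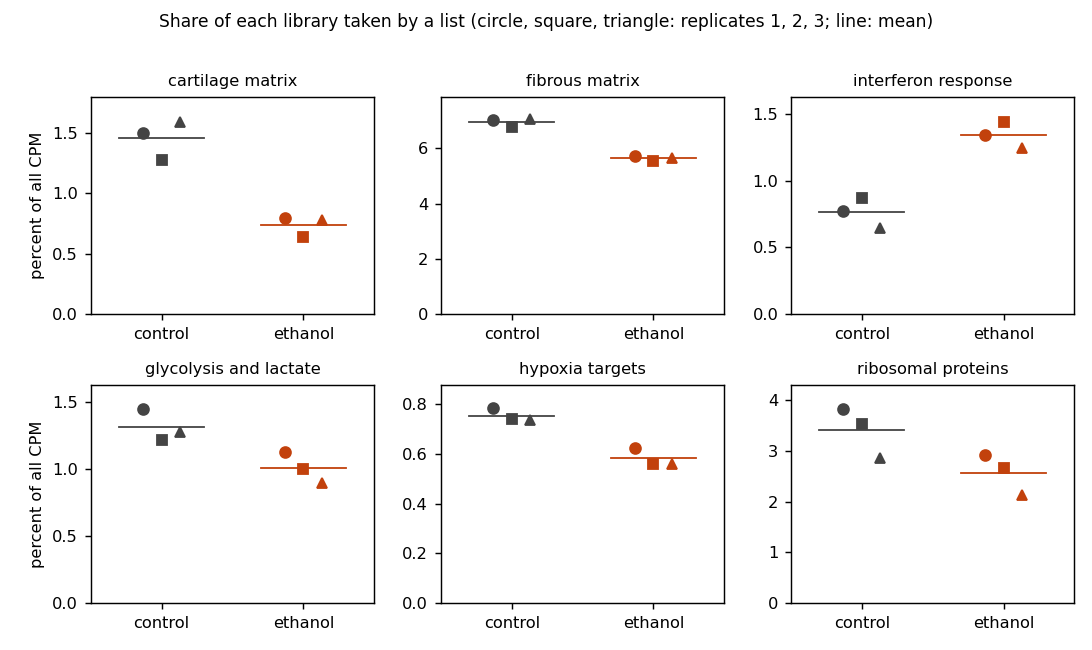
Share of all counts taken by each of several gene lists (y axes, percent, from 0) in the 6 libraries, with circles, squares and triangles for replicates 1, 2 and 3 of control and ethanol and a line at each group mean. The groups separate for the matrix and interferon lists and overlap for the ribosomal proteins, where replicate 3 is the lowest of each group.

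Growth factor lists held some of the larger single changes. Of 19 insulin-like growth factor genes, 10 were lower and none higher. Igf1 was at 69.2, 94.8 and 70.9 CPM in the controls and at 40.3, 35.9 and 44.9 CPM with ethanol (log2 fold change -0.93, SE 0.13, limma adjusted p = 0.000951). Igf2 (-0.55) and the binding protein Igfbp2 (-0.95) fell with it on the log2 scale, while Igfbp5 (-0.34), also lower, turned direction under quantile scaling. In the 35 genes of bone morphogenetic protein signalling, 9 were lower (25.7%) and 2 higher (5.71%), against 14.7% and 12.2% of all genes tested. The ligand Bmp6 was at 18.9, 16.1 and 18.4 CPM in the controls and at 7.72, 6.59 and 6.58 CPM with ethanol (log2 fold change -1.24, SE 0.10, limma adjusted p = 8.72e-05), its antagonist Nog had a log2 fold change of -0.8, and the inhibitory Smad7 was higher (0.69). The 9-library fit gave 2 insulin-like growth factor genes lower, and 5 of the bone morphogenetic protein list lower and 1 higher. With the block 15 of the latter were lower and 4 higher.

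Of 51 WNT genes, 12 were lower (23.5%) and 7 higher (13.7%), against 14.7% lower and 12.2% higher among all genes tested. The share that was higher was near the background. The largest falls were in secreted antagonists, which keep WNT ligands from their receptors. Frzb, of the frizzled-related family, was at 379.9, 348 and 379.9 CPM in the controls and at 146, 117 and 138 CPM with ethanol (log2 fold change -1.47, SE 0.09, limma adjusted p = 2.05e-05). Dkk1 (-1.2), Sfrp2 (-0.86) and Sost were the others with large log2 falls, and the groups did not overlap for any of the 4. Among the ligands, Wnt7b was higher (0.86) with overlapping groups. Of the 51, 4 were lower and none higher in the 9-library fit, and with no filter on low genes 6 were lower and 3 higher. With the block 13 were higher, against 24.2% of all genes tested. Total-count CPM gave 7 lower and 13 higher, against 9.67% and 24.3% of all genes tested. Without control replicate 1 and without ethanol replicate 2, 6 and 7 were lower, and 2 to 3 were higher without any 1 of these or of control replicate 2 and ethanol replicate 3, against 12 without control replicate 3.

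The enzymes of ethanol, aldehyde and acetate handling did not rise as a group: of 22 tested, 7 were lower (31.8%) and 1 higher (4.55%). The shares over all genes tested were 14.7% and 12.2%, and the median log2 fold change of the list was -0.173. Of 13 aldehyde oxidation enzymes 6 were lower, of 5 alcohol oxidation enzymes none and of 4 acetate enzymes 1. The list also holds aldehyde dehydrogenases of other pathways, such as Aldh6a1. Aldh2, the mitochondrial enzyme that oxidizes acetaldehyde, was at 244, 209 and 184 CPM in the controls and at 157, 169 and 136 CPM with ethanol (log2 fold change -0.46, SE 0.11, limma adjusted p = 0.0161). Acss2, the cytosolic and nuclear acetyl-CoA synthetase, was at 32.4, 26.8 and 27.1 CPM in the controls and at 20.03, 18.3 and 14.3 CPM with ethanol (log2 fold change -0.69, SE 0.13, limma adjusted p = 0.00443). Every control lay above every ethanol library for both. Adh5, an alcohol dehydrogenase that mainly handles glutathione-bound formaldehyde, was at 70.7, 61.7 and 62.0 CPM in the controls and at 64.1, 64.9 and 54.5 CPM with ethanol and did not pass (-0.08, limma adjusted p = 0.52). Total-count CPM turned its direction. Adh7, an alcohol dehydrogenase of retinol and ethanol, was the 1 higher gene, at 25.2, 25.8 and 27.1 CPM in the controls and at 30.0, 34.3 and 31.6 CPM with ethanol (log2 fold change 0.29, SE 0.08, limma adjusted p = 0.029). Its call was lost without control replicate 1 or 2 and without ethanol replicate 2 or 3.

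Adh1, Cyp2e1 and Aldh1a1, further enzymes of ethanol and acetaldehyde oxidation, had means under 1 CPM and were not tested. Aldh6a1, of valine breakdown, had the largest fall of the enzyme list (-0.79). None of the 22 enzymes passed in the 9-library fit, and with the block 12 were lower. Total-count CPM gave 3 lower, no filter on low genes 4, and leaving out control replicate 1, ethanol replicate 2 or ethanol replicate 3 gave 2 to 3.

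Genes of division moved little in the median, by 0.153 for mitosis and 0.123 for DNA replication on the log2 scale. Of 46 mitosis genes 6 were higher (13%, against 12.2% of all genes tested), a share near the background, among them Mybl2 (0.57), a factor of cycling cells. Of 46 DNA replication genes 12 were higher (26.1%) and 2 lower (4.35%, against 14.7% of all genes tested), led by E2f2 (0.81) and Mcm10 (0.55). With the block 24 mitosis and 20 replication genes were higher, and with total-count CPM 21 and 24. In the 9-library fit no mitosis and 2 replication genes were higher. Leaving out ethanol replicate 2 gave 3 mitosis and 4 replication genes higher, and leaving out control replicate 1, control replicate 2 or ethanol replicate 1 gave 4 to 7 replication genes.

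Of 29 genes under NRF2, the factor of the oxidant response, 10 were higher (34.5%) and 7 lower (24.1%). The shares over all genes tested were 12.2% and 14.7%. Slc7a11, the cystine transporter, was at 23.4, 24.2 and 30.2 CPM in the controls and at 48.2, 52.0 and 60.0 CPM with ethanol (log2 fold change 1.02, SE 0.11, limma adjusted p = 0.000357), and Gstm1, a glutathione transferase, was lower (-0.76). Of 35 genes under ATF4, the factor of the amino acid response, 7 were higher and 1 lower, led by Slc7a5 (0.58), an amino acid transporter, and Atf5 (0.53). No gene of either list passed in the 9-library fit. With the block 16 ATF4 genes were higher and 11 NRF2 genes lower, and with total-count CPM 16 ATF4 genes were higher. Without control replicate 1, control replicate 2 or ethanol replicate 2, 4 to 5 NRF2 and 3 to 4 ATF4 genes were higher, and without control replicate 3, 13 ATF4 genes were. Without control replicate 1, 3 NRF2 genes were lower.

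The labelled cell type was checked against defining markers. All 12 chondrocyte markers passed the 1 CPM mean, and 11 were lower with ethanol, while Sox5 did not pass. Many of these markers, such as Col2a1, Acan and Comp, are also members of the cartilage matrix list. Markers of macrophages summed to 3.72 to 4.84 CPM in the controls and 3.44 to 4.26 CPM with ethanol, and Adgre1, which defines them, was at 0 in all 6 libraries. Of 7 macrophage markers, 2 had a mean of at least 1 CPM, 1 of them Lyz2, which reached it only through the controls and is given no test here. Endothelial markers summed to 1.32 to 1.48 CPM in the controls and 2.24 to 2.48 CPM with ethanol. The 1 of them with a mean of at least 1 CPM, Pecam1, reached it only through the ethanol libraries, where it was at 1.36, 1.44 and 1.48 CPM. Markers of neurons summed to 85.8 to 94.2 CPM in the controls and 95.9 to 104.5 CPM with ethanol, and 1 of 2 tested was higher, with overlapping groups. Those of adipocytes summed to 21.7 to 25.3 CPM and 19.1 to 22.95 CPM, and the 1 tested did not pass. Osteoblast markers summed to 8102 to 9441 CPM in the controls and 5261 to 6084 CPM with ethanol, with 4 of 7 lower and 1 higher. No muscle or epithelial marker reached the 1 CPM mean. The part of these other cell types in the gene results was not tested.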

How the data were processed

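RNA of 6 of the series' 9 libraries, 3 control and 3 ethanol, was compared. The deposited values are log2 CPM with TMM scaling, per the file name and header. Partek, the build mm10, STAR 2.7.8a and Bowtie2 2.2.5 are named in the submitters' processing notes without their roles; how reads were counted and on which gene models are not given in the sources used here. The labels' treatment protocol describes other material and was not used. Reads were recovered by taking the lowest value of each library to be an offset of 1e-05 reads, which is an assumption. This put the depth at 28700000 to 41900000 per library, with 1 read worth 0.0231 to 0.0348 CPM. Only 85.7% to 87.4% of low values (1 to 20 reads) came out whole within 0.02 reads, so no count test was run.

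Values were turned back into CPM, kept where the mean over the 6 libraries was at least 1, and tested as log2(CPM + 1) in limma 3.58.1 (R 4.3.3) with a trend of the variance on the mean and p-values adjusted by Benjamini-Hochberg over all 12849 genes. Errors are limma standard errors, with n = 3 libraries per group, and the p-values are two-sided. The script was tested on simulated data. The limma fit behind the printed errors and p-values was unpaired. Same-numbered libraries were taken as pairs only in the replicate block and in the plot of list medians within each pair. Pairing by number was chosen because the deviations of these libraries from their group means correlated at 0.554, 0.363 and 0.667. Gene lists are described by counts and medians only, to be read against the shares over all genes, 12.2% higher and 14.7% lower. The members and lists were chosen with earlier results of these data known.

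The text names genes from a rule: the 15 largest rises and 15 largest falls among genes that passed, had no overlap and averaged 5 CPM or more, up to 6 members of each described list with the largest change and its 2 most abundant, the 10 most abundant genes that passed, and 9 genes of cartilage and of ethanol metabolism in every case. Not all of them are described. Cgas, Csf1, Epas1, Hif1a, Ifih1, Ifnar2, Irf7, Irf9, Irgm2, Slc2a3, Sox5, Stat2, Tlr3, Vcan and the untested enzymes lie outside this rule and were chosen after their values were seen. Promoters come from RefSeq, build GRCm38. Transcript lengths and gene positions come from the GENCODE annotation of the same build, with lengths for 97.8% of the tested genes. Alternatives were another scaling, filter, pseudocount, variance model, set of libraries, replicate block, and each library left out.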

Additional observations from a re-analysis of the deposited data

How the results depend on the processing

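These settings gave totals and counts in each direction within 1.5 times of 3450, 1567 higher and 1883 lower: a pseudocount of 0.1, no pseudocount, a mean of at least 5 CPM, no filter, no mean trend, robust variance, median-of-ratios scaling, and quantile scaling; so did 8 libraries without acetate replicate 2, and leaving out ethanol replicate 1. All 9 libraries gave 509, with 191 higher and 318 lower. Leaving out 1 library gave 1491 to 4472, with 615 to 2360 higher and 876 to 2112 lower. The replicate block, which pairs libraries by number, gave 6410, with 3107 higher and 3303 lower, and ended no call of a named gene. It added calls for 7 of the 10 genes given with values that did not pass (4 of the 10 without a mean trend). Total-count CPM gave 3128 higher and 1242 lower. Chosen after seeing the data, the block with total-count CPM gave 7311, with 5024 higher, and the block without a mean trend 6130, with 2982 higher and 3148 lower. limma's prior degrees of freedom were infinite in the block fit and 20.61 without the trend, so the block's adjusted p-values are not given.

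Quantile scaling turned the log2 fold changes of Ibsp (0.021), Bgn (0.0581), Sparc (0.0583), Eef1a1 (0.249), Igfbp5 (0.107), Ldha (0.036), Pkm (0.0484), Spp1 (0.14), Lox (0.0932), Atp5b (0.0645) and B2m (0.157). B2m also turned to 0.079 under total-count CPM, with or without the block, and ranged from -0.148 to 0.0966 with 1 library left out (0.0966 without control replicate 2, 0.0751 without ethanol replicate 3), and Adh5 to 0.0137 under total-count CPM with or without the block. The cause of these shifts was not tested. The number of libraries and the depth limit the precision for genes near 1 CPM, where 1 read is worth up to 0.0348 CPM.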

Other observations

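Among genes of cell guidance, Sema3b was one of the 15 largest falls. Sema3b, a secreted semaphorin, was at 19.1, 19.2 and 18.3 CPM in the controls and at 4.57, 4.86 and 3.58 CPM with ethanol (log2 fold change -1.91, SE 0.11, limma adjusted p = 2.03e-05). Sema3e, a relative of it, was at 9.29, 9.91 and 7.59 CPM in the controls and at 3.69, 4.02 and 2.56 CPM with ethanol (log2 fold change -1.18, SE 0.15, limma adjusted p = 0.000657). Of 28 semaphorins, netrins, ephrins and their receptors tested, 5 were lower and 4 higher, against 14.7% lower and 12.2% higher among all genes tested. With the series' acetate libraries added to the fit, 2 were lower and none higher. The replicate block gave 8 lower and 9 higher, against 25.7% and 24.2% of all genes tested. Without control replicate 3, 8 were higher, and without control replicate 1, control replicate 2, ethanol replicate 2 or ethanol replicate 3, 2 were.

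Of 14 tested Notch genes, which pass signals between touching cells, 6 were higher (42.9%) and 1 lower (7.14%). The shares over all genes tested were 12.2% and 14.7%. Notch1, a receptor, was at 11.5, 12.4 and 11.9 CPM in the controls and at 17.6, 19.5 and 18.9 CPM with ethanol (log2 fold change 0.61, SE 0.09, limma adjusted p = 0.00123), and the ligand Dll1 at 2.31, 1.56 and 1.45 CPM in the controls and at 3.23, 3.66 and 3.39 CPM with ethanol (log2 fold change 0.69, SE 0.14, limma adjusted p = 0.00603). Rbpj, the DNA-binding partner of all Notch receptors, was lower (-0.43). Of the 14, 1 was higher and none lower with the acetate libraries, and without control replicate 1, control replicate 2, ethanol replicate 2 or ethanol replicate 3, 2 to 3 were higher.

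Of 32 genes that add, remove or read acetyl groups on proteins, 6 were higher (18.8%) and 1 lower (3.12%). Among all genes tested, 12.2% were higher and 14.7% lower. Hdac11, a deacetylase, was at 23.6, 20.3 and 17.6 CPM in the controls and at 10.8, 10.9 and 8.70 CPM with ethanol (log2 fold change -0.94, SE 0.13, limma adjusted p = 0.000843). Sirt1, an NAD-dependent deacetylase, was at 21.4, 24.9 and 27.6 CPM in the controls and at 34.4, 47.1 and 45.9 CPM with ethanol (log2 fold change 0.76, SE 0.13, limma adjusted p = 0.0033), and Ep300, an acetyltransferase, had a log2 fold change of 0.52. The groups did not overlap for these 3 genes. None was higher with the acetate libraries, and without control replicate 1, control replicate 2, ethanol replicate 2 or ethanol replicate 3, 2 to 3 were. Total-count CPM gave 10 higher, against 24.3% of all genes tested.

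Other large changes by log2 fold change, each past the threshold with no overlap between groups, were those of Syt8 (-2.11), a synaptotagmin, Slpi (-1.99), a protease inhibitor, Rtl3 (-1.95), Hspb7 (-1.8), a small heat shock protein, and Penk (-1.79), proenkephalin, among the lower genes. Among the higher genes they were Apobr (1.74), a lipoprotein receptor, Cxcl11 (1.5), a chemokine that interferon induces, Hap1 (1.36) and Ereg (1.32), a ligand of the epidermal growth factor receptor.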
